A study of Homo sapiens with 1 sample.

Results

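The miRNAs described here are the 3p arms of the human hairpins numbered from miR-6726 to miR-6895, a block of names that is rich in mirtrons. They were chosen by name alone: every human entry of the array with a number in that range and a name ending in -3p was taken, which gave 167 of the 2549 human miRNAs. The same range held 167 5p arms, and 166 hairpins had both arms on the array. The measurements came from 1 miRNA array of DLD-1, a human colorectal carcinoma cell line, transfected with the empty negative control plasmid (pLVX-NC) and lysed for total RNA. The cells were grown in RPMI medium with fetal bovine serum, and they were the control of an experiment on circLONP2, a circular RNA; cells overexpressing it were not analysed here. With 1 array of 1 condition there was no replicate, so no difference was tested, and each SD below is the spread between spots of that array, which is technical.

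A miRNA hairpin has a 5p and a 3p arm, and usually one of them is kept in the silencing complex and guides it to its targets through the seed near the 5′ end. Most hairpins are cut from their primary transcript by Drosha. A mirtron is instead a short intron that is released by splicing, debranched and folded into a hairpin that Dicer can cut, so its 3p arm can carry the end of the intron, a pyrimidine-rich stretch followed by the AG of the splice acceptor.

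The first sequences shown are from hairpins at either side of the comparison between arms that the results below turn on. They were read from RefSeq (GRCh38.p14), which gave sequences for 148 of the 167 3p arms and 142 of the 167 5p arms, and are written 5′ to 3′ with the seed, bases 2 to 8, in capitals.
miR-6840-3p: gCCCAGGAcuuugugcggggug
miR-6840-5p: aCCCCCGGgcaaagaccugcagau
miR-6766-3p: uGAUUGUCuucccccacccuca
miR-6766-5p: cGGGUGGGagcagaucuuauugag
miR-6731-3p: uCUAUUCCccacucuccccag
miR-6731-5p: uGGGAGAGcaggguauugugga
miR-6749-3p: cUCCUCCCcugccuggcccag
miR-6749-5p: uCGGGCCUgggguugggggagc
miR-6869-3p: cGCCGCGCgcaucggcucagc
miR-6869-5p: gUGAGUAGuggcgcgcggcggc
miR-6769b-3p: cCCUCUCUgucccacccauag
miR-6785-5p: uGGGAGGGcguggaugauggug
In the first 3 hairpins the 3p arm was the brighter one, and in the others the 5p arm was. The 3p arm of miR-6766 lies at chr15:89326742-89326763 on the minus strand, within the span of POLG, the catalytic subunit of the mitochondrial DNA polymerase. The 3p arm of miR-6840 lies at chr7:100356696-100356717 on the plus strand, within the span of no protein-coding gene. That of miR-6731 lies at chr1:24919345-24919365 on the minus strand within RUNX3, a Runt transcription factor, and that of miR-6749 at chr11:64902387-64902407 on the minus strand within ATG2A, a lipid transfer protein of autophagy. That of miR-6869 lies at chr20:1392904-1392924 on the minus strand within FKBP1A, which encodes the FK506-binding protein FKBP12. Whether these positions are intronic was not analysed here, since only gene spans were used.

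The second set shows the 3′ ends of 3p arms that were among the 10 highest in signal, with the last 2 bases in capitals: the first 4 end in AG and the last 4 do not.
miR-6791-3p: ugccuccuuggucuccggcAG
miR-6819-3p: aagccucuguccccaccccAG
miR-6765-3p: ucaccuggcuggcccgcccAG
miR-6892-3p: ucccucucccaccccuugcAG
miR-6753-3p: uggucugucucugcccuggcAC
miR-6790-3p: cgaccucggcgaccccucaCU
miR-6800-3p: caccucuccuggcaucgccCC
miR-6766-3p: ugauugucuucccccacccuCA
The AG-ended arms lie within the spans of GPR108 (chr19:6736712-6736732), MYH9, the non-muscle myosin heavy chain (chr22:36286847-36286867), JAG2, a Notch ligand (chr14:105150778-105150798), and ZYX, the focal adhesion protein zyxin (chr7:143382780-143382800), each on the strand of the gene.

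Among the 148 3p arms with a sequence, 115 (77.7%) ended in AG, and 98 (66.2%) ended in CAG, which is part of the AG count. Of the 635 3p arms with a sequence outside the number range, 65 (10.2%) ended in AG, and over all 2248 human miRNAs with a sequence the share was 12.4%. The search read only the last bases of the mature RNA, on its own strand. In 106 of the 137 members whose hairpin sequence and position were in the table, the arm reached the last base of the hairpin, and all 106 of those ended in AG. The other 31 ended 1 to 8 bases before it, and 1 of them ended in AG. By base content the members were rich in C (median 45.5%) and poor in G (median 14.3%), with a median of 72.7% pyrimidines, against 54.5% in the 3p arms outside the range. Their 5p partners were the mirror image, with a median of 50% G and 31.8% pyrimidines. Of the 137 members, 118 (86.1%) lay within the span of a protein-coding gene on the same strand, compared with 283 of 569 (49.7%) of the 3p arms outside the range. A list of well-known mirtrons, used as a yardstick, had AG at the end of 7 of its 9 3p arms with a sequence, and GU, the start of an intron, at the start of 8 of its 11 5p arms. GU stood at the start of 12 (8.45%) of the members' 142 5p partners. Outside the range it stood at the start of 32 of 621 5p arms (5.15%), and over all human miRNAs with a sequence the share was 3.51%.

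**Figure D1:**
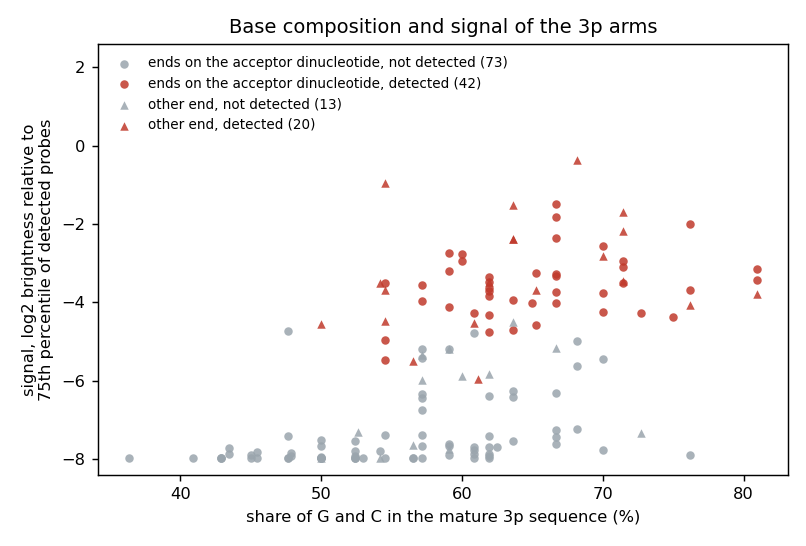
Signal (log2 brightness minus that of the reference) against the share of G and C in the mature sequence, one point per 3p arm of the range with a sequence, red where detected and grey where not, circles for arms ending in AG and triangles for other ends. No arm below 50% GC is red, and the 73 undetected arms that end in AG outnumber the 42 detected ones.

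The array measured each miRNA with 20 spots, spread over 2 probes for 158 members and 3 probes for 9. Brightness is the background-subtracted Cy3 intensity of a spot on a linear scale, and signal is log2 brightness minus that of the 75th percentile of detected probes, so that 0 stands for a brightness of 248.8. Because signal averages the logs over probes and brightness the spots, a miRNA with probes far apart ranks lower by signal than by brightness, and ranks below are by signal. Of the members' 3340 spots, 150 were left out as outliers, 24.7% were well above background and none was saturated. The number of arrays limits the precision. Of 9 miRNAs known from colorectal epithelium 8 were detected, with miR-192 the exception, and the 8 had a highest brightness per miRNA of 30.9 to 3024. Of 13 known from other cell types 9 were also detected, at up to 212.4. Of the latter list miR-451a, miR-1, miR-143 and miR-122 were not detected, and the part of other cell types in the values below was not tested. In both lists a miRNA counted when any of its arms was detected, and 56.8% of all human miRNAs were detected. These counts therefore do not check the label.

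The 3p arms of the range were detected less often than their partners, and they were dim where detected. The software's flag called 70 of the 167 members detected (41.9%), against 49.4% of all human 3p arms and 56.8% of all human miRNAs, and 151 of the 167 5p arms of the range (90.4%). Outside the range the arms were nearly alike, with 51.1% of 708 3p arms and 53.2% of 693 5p arms detected. In miR-4632 to miR-4804, another block of numbers with 105 hairpins, 48.6% of the 3p and 49.5% of the 5p arms were detected. In the yardstick list of mirtrons 7 of 10 3p and all 11 5p arms were detected. The gap between the arms was thus seen in the range and, in a short list, in the yardstick; these shares describe 1 array, with no test.

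The 70 detected members had a brightness between 6.38 and 194.1, with a median of 22.5. Their signals ran from -5.95 to -0.36, with quartiles of -4.11 and -2.95 around a median of -3.50, so none reached the reference brightness. The 151 detected 5p arms had a median signal of -1.02 and reached 5.85, and 52 of them were above the reference. Detected 3p arms outside the range had a median of -2.68 and reached 6.99, with 48 of 362 above the reference. Of the 70 members, 62 were below the median of all detected human miRNAs (-2.06), and the highest ranked 367 of 1448. Together the 3p arms took 0.429% of the summed brightness of human miRNAs and the 5p arms 17.5%.

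Many of the detected members sat close to the background. The brightest probe was above the 99th percentile of 1000 negative control spots, a brightness of 12.5, in 66 of the 167 members, all of them among the 70. In 52 members 0.5 or more of the spots on one probe were well above background, and in 46 every spot of a probe was. Over all 2549 human miRNAs the counts by these criteria were 1424, 1271 and 1168, in the same order. Of the 70 members called detected, 9 had no spot well above background, and 15 were listed at the lowest value the authors deposited for any detected miRNA. Among all 1448 detected human miRNAs these counts were 91 and 183. Among the 362 detected 3p arms outside the range they were 36 and 63. The median spread between the probes of a detected member was 0.33 on the log2 scale, but for 18 of them it was more than 1. All 97 undetected members had no spot well above background, and 68 of them had a mean brightness below 1. The 3 highest of them in signal were miR-6792-3p (brightness 11.1 ± 1.64, SD over 16 spots), miR-6841-3p (10.95 ± 1.90, 19 spots) and miR-6868-3p (9.53 ± 2.08, 20 spots).
The 3 detected members lowest in signal had 1 probe near the background and a higher one. miR-6816-3p measured 6.38 ± 6.99, with 1 of its 20 spots well above background. For miR-6870-3p one probe measured 32.1 ± 3.78 with all 10 spots well above background, while the other measured -1.27 ± 1.30. For miR-6772-3p the probes measured 24.4 ± 5.32 and 0.012 ± 2.11. By mean brightness, 6 detected members, from miR-6816-3p to miR-6884-3p (10.99 ± 2.13), lay below the undetected miR-6792-3p, so the groups overlapped at their edge. miR-6884-3p was named after its values were seen.

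**Figure D2:**
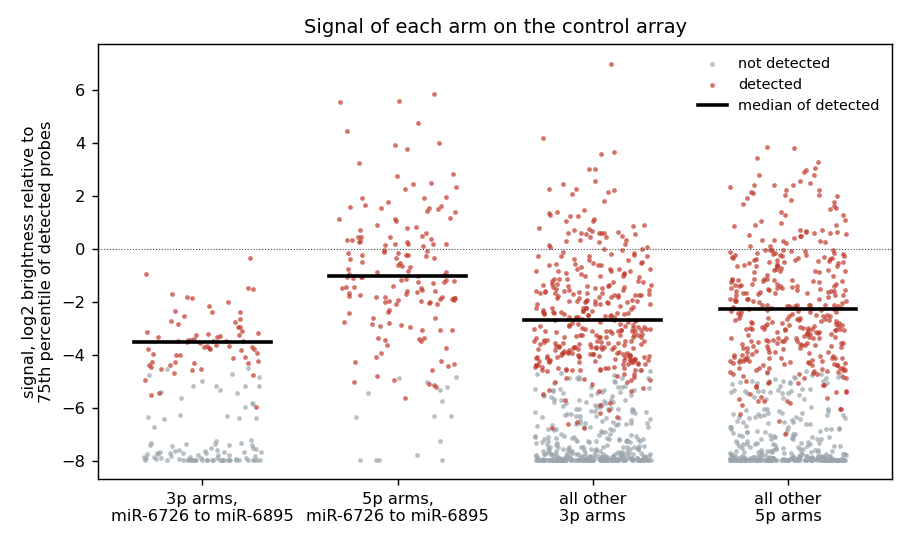
Signal (log2 brightness minus that of the reference) of the 3p and 5p arms of the range beside those of the arms outside it, one point per miRNA. The detected 3p arms of the range have a median of -3.50 and stay below 0, and the detected 5p arms have a median of -1.02.

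The 10 detected members highest in signal had brightnesses from 54.0 to 194.1. miR-6742-3p, at 58.8 ± 49.3, is not among them because its probes differ by 3.25 on the log2 scale. miR-6840-3p was the highest, at 194.1 ± 13.1 over 19 spots, and its 3 probes measured 186, 199.0 and 198.9. miR-6766-3p followed at 128.4 ± 5.17 over 18 spots, and its probes measured 125.3 and 130.9. Both had all spots well above background, and in both the probes lay close together. miR-6791-3p (89.0 ± 9.58), miR-6819-3p (70.7 ± 3.08), miR-6850-3p (70.4 ± 11.6) and miR-6800-3p (55.6 ± 3.35) also had probes within 0.19 of each other on the log2 scale. The remaining 4 were carried by one probe more than the other. miR-6753-3p was 99.5 ± 47.8, with a spread between probes of 1.46 on the log2 scale. miR-6790-3p was 85.4 ± 38.2 with a spread of 1.34, miR-6765-3p 85.5 ± 60.4 with 2.43 and miR-6892-3p 54.0 ± 24.6 with 1.36. TCIRG1, a subunit of the vacuolar proton pump, spans miR-6753, and GTF2F1, a subunit of the general transcription factor TFIIF, spans miR-6790. The order of these 4 among the 10 therefore lies within the spread between their probes.

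**Figure D3:**
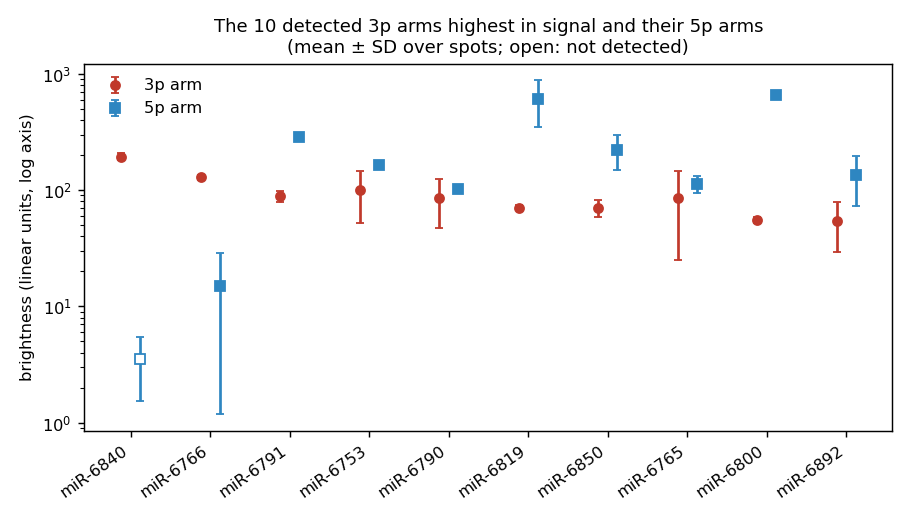
Brightness of the 10 detected 3p arms highest in signal and of the 5p arm of the same hairpin, on a log axis, as the mean over spots with the SD between spots, open points being undetected arms. In 2 of the 10 hairpins, miR-6840 and miR-6766, the 3p arm lies above its partner, and in the other 8 it lies below.

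Set against the other arm of its own hairpin, the 3p arm was usually the dimmer one. The arms are read by different probes, and brightness also depends on how each probe binds, so a difference between arms is not a ratio of molecules. Both arms were detected in 67 of the 166 hairpins (40.4%, against 31.5% of all 810 human hairpins with both arms on the array), only the 5p arm in 83 (50%), only the 3p arm in 3 and neither in 13. Outside the range the one-sided hairpins were shared nearly evenly, with 149 of 644 showing only the 5p and 141 only the 3p arm. Among the 67 hairpins of the range, the 5p arm was at least 2-fold brighter in 50 (74.6%, against 53.3% of all human hairpins with both arms detected). The 3p arm was at least 2-fold brighter in 4 (5.97%, against 21.6%), and 13 were within 2-fold. By sign alone, 61 of the 67 leaned to the 5p arm, against 168 of 255 over all human hairpins with both arms detected. The median difference, 3p minus 5p, was -2.85 on the log2 scale, a 7.22-fold lower brightness of the 3p arm, with quartiles of -3.99 and -1.10 and a range from -9.62 to 4.14. The SE of a difference had a median of 0.049 and a highest value of 0.17. It was built only from the scatter of spots within each probe, so disagreement between the probes of an arm is left out. The probes of a detected 3p arm lay a median of 0.33 apart on the log2 scale, so the differences are less precise than their SE. In the 188 hairpins outside the range with both arms detected the median difference was -0.45. In miR-4632 to miR-4804 it was -0.40 over 25 hairpins, and in the yardstick list of mirtrons -1.43 over 6. Those 6 were split: the 5p arm was at least 2-fold brighter in 3 and the 3p arm in 2, with quartiles of -3.54 and 1.20.

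**Figure D4:**
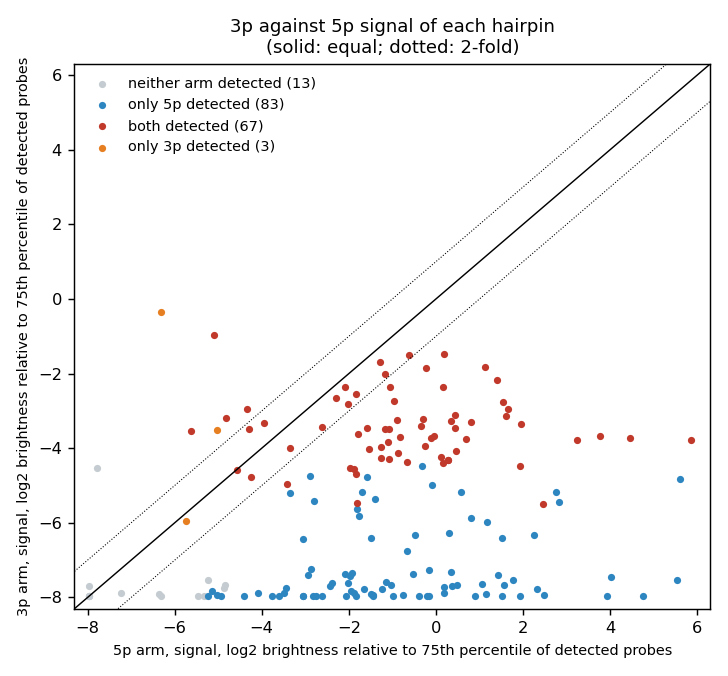
Signal of the 3p arm against that of the 5p arm for each hairpin of the range, with a solid line at equal signal and dotted lines at a 2-fold difference, both on log2 scales with 0 at the reference brightness. Of the 67 hairpins with both arms detected, 61 lie on the 5p side of the line and 6 on the 3p side.

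In the 5 hairpins with the largest difference towards the 5p arm, the 3p arm was near the background and the 5p arm among the bright miRNAs. In miR-6785 the 3p arm measured 19.0 ± 6.41 over 19 spots and the 5p arm 14399.5 ± 587.2 over 20, a difference of -9.62 (SE 0.034). In miR-6769b, within IKBKE, a kinase of innate immune signalling, they measured 19.1 ± 2.29 and 5452 ± 436.5, a difference of -8.17 (SE 0.047). In miR-6772 they measured 12.2 ± 13.1 and 1363 ± 215.7, a difference of -7.95 that rests on a 3p probe at background. With the brightest probe of each arm, held at or above 13.7, the lowest brightness of a probe well above background, it was -5.99, behind miR-6875 at -6.00, a hairpin named after its values were seen, and miR-6772 came after the first 5. The 3p arms of these 3 hairpins lay between 12.2 and 19.1, while their 5p arms lay between 1363 and 14399.5. In miR-6749 the arms measured 24.6 ± 11.7 and 3385 ± 186.1, a difference of -7.44. In miR-6869 they measured 18.4 ± 4.90 and 2338 ± 190.2, a difference of -7.00. The spread between the 3p probes was 4.24 on the log2 scale in miR-6772, 1.59 in miR-6749 and 0.95 in miR-6785. It was 0.68 in miR-6869 and 0.08 in miR-6769b. With the brightest probes and the floor, miR-6785 was at -9.19 and miR-6769b at -8.17. By that measure miR-6869 was at -6.78, ahead of miR-6749 at -6.67.

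Where only the 5p arm was detected, its partner gives a bound. The bound sets the mean of the bright arm against the higher of the dim arm's own brightness and that floor of 13.7. A bound above 1 could be given for 78 of the 83 hairpins, with a median of at least 9.04-fold, and for 72 of them it was at least 2-fold. The highest belonged to miR-6893, singled out after its values were seen, in which the 5p arm measured 12020.5 ± 223.6 and the undetected 3p arm 9.11 ± 2.38, at least 875.8-fold lower.

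The opposite pattern was limited to a few hairpins. Of the hairpins with both arms detected, miR-6766 had the largest difference towards the 3p arm, 4.14 (SE 0.17) on the log2 scale. Its 5p arm measured 15.0 ± 13.8 with 9 of 18 spots well above background and a spread between probes of 3.88, so the size depends on which 5p probe is read: with the brightest probe of each arm, 130.8 and 27.9, it was 2.23, or 4.69-fold. miR-6731-3p measured 21.9 ± 5.198 against 7.497 ± 5.41 for its 5p arm, a difference of 2.09, but none of the 5p spots was well above background and its probes differed by 3.16, so only a bound holds: with the brightest probes and the floor of 13.7 the 3p arm was at least 1.89-fold brighter, under the 2-fold margin. In these 2 hairpins the probes of the arms did not overlap. In miR-6885 the 3p arm measured 48.0 ± 40.5 and the 5p arm 9.99 ± 4.60, a difference of 1.63. Its 3p probes were at 87.2 and 8.72, and none of the 10 spots of the dimmer one was well above background. By the brightest probes and the floor the fold was 6.34, which rests on the brighter 3p probe alone and is not a bound for the arm. In miR-6742 the arms measured 58.8 ± 49.3 and 36.5 ± 40.2, a difference of 1.39, with 3p probes at 102.0 and 10.9, and by the brightest probes it was 1.25-fold. In these 2 the probes of the arms overlapped. miR-6822, within TTC21A, came next at 0.79, with 22.3 ± 3.33 against 12.5 ± 2.32, where none of the 5p spots was well above background. By the brightest probes and the floor, chosen after seeing the data, 2 hairpins, miR-6766 and miR-6885, were thus at least 2-fold brighter in the 3p arm, and 51 in the 5p arm. For miR-6885 this holds for the brighter 3p probe only. By the same measure miR-6853, miR-6765 and miR-6790 turned from the 5p to the 3p side, at 1.72-, 1.13- and 1.19-fold. miR-6813 turned from the 3p to the 5p side, at 3.76-fold. miR-6853 and miR-6813 were named after their values were seen. An arm with no spot well above background was present in 11 of the 67 hairpins, the 3p arm in 9 and the 5p arm in 2.
Only the 3p arm was detected in 3 hairpins. In miR-6840 the 5p arm measured 3.51 ± 1.97 with no spot well above background, so the 3p arm was at least 14.15-fold brighter. In miR-6855, within USP20, a ubiquitin-specific protease, the 3p arm measured 22.04 ± 1.84 and the undetected 5p arm 8.34 ± 3.42, at least 1.60-fold. In miR-6816 the arms measured 6.38 ± 6.99 and 6.34 ± 4.77, and no bound above 1 could be given.

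Members with a higher GC content were detected more often. None of 17 members under 50% GC was detected. Between 50 and 55% it was 8 of 28 (28.6%), and between 55 and 60% 6 of 25 (24%). The share was 18 of 36 (50%) between 60 and 65%, 12 of 20 (60%) between 65 and 70%, and 18 of 22 (81.8%) at 70% or more. In the 3p arms outside the range, by contrast, 104 of 305 (34.1%) under 50% were detected, and 31 of 39 (79.5%) at 70% or more. Signal and GC content had a Spearman rho of 0.62 over the 148 members with a sequence and 0.29 over the 62 of them that were detected. The same rho was 0.43 over the 635 arms outside the range. The bases behind it differed: in the members rho was 0.51 with C content and 0.06 with G content. Outside the range it was -0.02 with C and 0.47 with G. All points share 1 array, so these are descriptions with no p. Median GC was 63.6% in detected and 57.1% in undetected members, and the median U content 22.7% and 31.8%. Of the members ending in AG, 42 of 115 (36.5%) were detected, against 20 of 33 (60.6%) with another end, and the detected ones had median signals of -3.59 and -3.49. All 17 members under 50% GC, none of them detected, ended in AG, so this comparison is mixed with GC content. The part of GC content in it was not tested. Arms that reached the end of the hairpin were detected in 39 of 106 (36.8%) and those that stopped before it in 17 of 31 (54.8%), with median GC of 60% and 60.9%. The part of probe binding in the relation with GC content was not tested.

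Seeds were rarely shared within the range. Among the 62 detected members with a sequence 2 seeds occurred in 2 hairpins each, and over all members with a sequence 5 did. They are shown because members with the same seed would be read as the same family.
miR-6819-3p: aAGCCUCUguccccaccccag
miR-6877-3p: cAGCCUCUgcccuuggccucc
miR-6801-3p: aCCCCUGCcacucacuggcc
miR-6810-3p: uCCCCUGCucccuuguuccccag
The first pair measured 70.7 ± 3.08 and 22.9 ± 3.51, and their 5p arms 612.4 ± 264.9 and 338.2 ± 48.5, so both leaned to the 5p arm, by -2.94 and -3.89. The second pair measured 37.3 ± 13.1 and 10.8 ± 3.10, with 5p arms at 74.5 ± 43.8 and 11.8 ± 5.31, differences of -0.81 and -0.003. Outside the range, miR-6766-3p had the seed of miR-219a-5p, a miRNA known from oligodendrocytes, and of miR-4782-3p, neither of which was detected (brightness -1.62 ± 1.36 and -0.30 ± 1.80). miR-6855-3p had the seed of miR-4513, which measured 204.6 ± 13.3, and so was brighter than every member.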

How the data were processed

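Total RNA of 1 sample was labelled with Cy3 and hybridised to an Agilent human miRNA array with a design on hg19. The authors deposited the scanner output of Feature Extraction 11.0.1.1, an intensity per spot on a linear scale with background subtraction, outlier marks and detection flags, and also log2 values for this array, quantile normalised per the methods. Here control and outlier spots were dropped, a floor of 1 was set on brightness, and log2 brightness was averaged first within each probe and then across the probes of a miRNA. From this the 75th percentile of 2567 detected probes was taken away. Python 3.11.15, numpy 2.4.6, pandas 2.3.3, R 4.3.3 and limma 3.58.1 (normexp, offset 50) were used. The averaging over spots and probes, the arm differences and their 2-fold calls were tested on simulated spots. That simulation held no background and no difference between the probes of a miRNA. The other steps were not simulated. Detection was the flag for each miRNA, and the arms of a hairpin were paired by name. Arms without a partner on the array were miR-6843-3p and miR-6805-5p. The members and lists were chosen with earlier results of these data known. The text names the 10 detected 3p arms highest in signal, the 5 largest differences in each direction with both arms detected, up to 5 3p arms whose 5p arm was undetected, the 3 detected lowest and 3 undetected highest in signal, and up to 5 seeds shared by detected arms. Sequences came from RefSeq, GRCh38.p14.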

Additional observations from a re-analysis of the deposited data

Results flagged for a closer look

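The same number range also held 4 entries whose names give no arm, and these entered none of the comparisons above. For 3 of them the brightest probe lay above the negative control spots. miR-6860 measured a brightness of 255.1 ± 70.9 (SD over 19 spots), miR-6745 237.9 ± 87.7 (20 spots) and miR-6863 34.9 ± 20.1 (19 spots), while miR-6844 was not detected (-3.08 ± 1.37, 18 spots). The first 2 were brighter than every 3p arm of the range.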

How the results depend on the processing

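No paired analysis was possible because the data hold 1 sample. The choices below were compared with 70 members detected at a median signal of -3.50, and with 67 hairpins with both arms detected, of which 50 were at least 2-fold brighter in the 5p and 4 in the 3p arm, at a median difference of -2.85. The direction held under every alternative run. When 0.5 of a probe's spots had to be well above background, the median signal was -3.31 and 2 hairpins were brighter in the 3p arm. With every spot, 46 members were detected at -3.22, both arms in 41 hairpins, 30 brighter in the 5p and 2 in the 3p arm, at a median difference of -2.41. With normexp the median signal was -1.91, 1 hairpin was brighter in the 3p arm, and the difference was -1.18. The brightest probe gave -3.25 and -2.58, the total gene signal -3.21, and the percentile over all probes -1.71. The deposited log2 values gave -3.12, 2 hairpins brighter in the 3p arm and a difference of -2.47. With every hairpin on the array, undetected arms included, 140 and 7 hairpins were brighter in the 5p and the 3p arm, and the difference was -4.18. Requiring that the probes of the arms did not overlap, chosen after seeing the data, left 2 brighter in the 3p arm. The brightest probe of each arm with a floor at the dimmest probe well above background, also chosen then, gave 2 brighter in the 3p arm and a difference of -2.58. The causes of these shifts were not tested, except that the stricter detection criteria kept fewer members. Most members were near the background, where brightness has little precision.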
